A study of Mus musculus with 9 samples.

Results

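The transcripts of 10 neuropeptide precursor genes were followed in RNA of tissue labelled as mouse hippocampus: Pmch, Hcrt, Trh, Avp, Oxt, Gal, Pomc, Cartpt, Npy and Sst. They were chosen by symbol, 10 of the 54513 genes in the authors' table, and all 10 passed the filter on low counts that left 18690 genes for testing. The study sequenced 9 libraries in 3 groups of 3 mice. For 12 weeks all mice ate a diet rich in fat, which is all that is described for the HFD group. The Trp group ate it with tryptophan, the amino acid from which serotonin and indoles are made, added at 0.5% by weight. The IPA group was gavaged daily with indole-3-propionic acid, a tryptophan product of gut bacteria, at 100 mg per kg body weight in saline. No saline gavage is described for the HFD group. In IPA against HFD the acid and the gavage itself therefore cannot be told apart. No group on ordinary chow was analysed here, and neither the labels nor the table state strain, sex or age. The column codes of the table (WTB for HFD, HEB for IPA and HOB for Trp) are paired with the samples by the labels and explained by neither the labels nor the table. That the columns belong to these mice therefore rests on that pairing alone.

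A neuropeptide is cut from a longer precursor protein, packed into dense-core granules and released to act on G protein-coupled receptors. Melanin-concentrating hormone (from Pmch) and the orexins (from Hcrt) are made by cell bodies of the lateral hypothalamus that send axons across the brain, while vasopressin and oxytocin come mainly from the paraventricular and supraoptic nuclei. Neuropeptide Y and somatostatin, in contrast, are made within the hippocampus by GABAergic interneurons, as well as in many other regions. A precursor messenger RNA stays mostly in the cell body, so its level in a dissected piece reports largely the cells whose bodies lie in that piece. In RNA of bulk tissue, fewer cells of a type and less RNA per cell cannot be told apart.

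The start regions of 4 of the genes are shown because these genes carry the main patterns: Pmch and Hcrt varied together over a wide range, Pomc was lowest in IPA, and Sst was the most abundant. The lines of Pmch, Hcrt and Pomc give the 150 bases before the transcription start in RefSeq (GRCm38.p6), 5′ to 3′ on the gene's strand. For Sst only a stretch of 30 bases around the marked letters is given. It lies upstream of the RefSeq start (position 23890844) and stops short of it. The stretch is short because GENCODE M21 starts this gene 114 bases before RefSeq does, so that it lies inside the GENCODE gene. The intervals are chr10:88090922-88091071 (plus strand) for Pmch, chr11:100762932-100763081 (minus) for Hcrt, chr12:3954795-3954944 (plus) for Pomc and chr16:23890874-23890903 (minus) for Sst. Capitals mark TATAAA, the TATA box letters, in the first 3 and TGACGTCA, the palindromic cyclic AMP response element, in Sst.
Pmch: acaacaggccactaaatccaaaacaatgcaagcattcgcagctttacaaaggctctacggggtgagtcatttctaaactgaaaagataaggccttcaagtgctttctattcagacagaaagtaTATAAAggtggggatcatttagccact
Hcrt: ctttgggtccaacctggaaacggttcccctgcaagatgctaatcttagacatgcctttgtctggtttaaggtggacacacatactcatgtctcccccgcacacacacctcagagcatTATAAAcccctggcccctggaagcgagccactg
Pomc: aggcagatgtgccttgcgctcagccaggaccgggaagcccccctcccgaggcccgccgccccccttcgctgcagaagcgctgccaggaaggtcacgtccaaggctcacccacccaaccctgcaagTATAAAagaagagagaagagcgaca
Sst: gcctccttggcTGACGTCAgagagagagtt
TATAAA, searched on both strands, lay 27, 33 and 25 bases before the start of Pmch, Hcrt and Pomc. It was found in 3 of the 10 neuropeptide promoters and in 13.6% of 32851 mouse promoters, each searched from 250 bases before to 50 bases after the start. Only these exact letters were searched, so promoters without a match may still hold a variant of the TATA box. TGACGTCA, which reads the same on both strands, lay 48 bases before the start of Sst and 112 bases before that of Cartpt, counted from the RefSeq starts, and was found in 1.79% of promoters. GENCODE M21 starts Cartpt 408 bases earlier, so both matches lie inside the genes as GENCODE draws them. These matches are descriptions of the sequence and carry no statement on binding.

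Sst and Npy were the most abundant of the 10 per length. On the deposited FPKM scale (fragments normalised to transcript length and depth) the mean level over 9 libraries was 173 for Sst, 62.7 for Npy, 50.2 for Pmch and 11.2 for Hcrt. Lower means were 8.40 for Cartpt, 6.75 for Avp, 6.21 for Trh, 2.73 for Oxt, 1.51 for Gal and 1.36 for Pomc. Sst, at 118 to 266 FPKM, stayed above Npy, at 35.5 to 100, in every library. The place of Pmch was not fixed: its FPKM ran from 0.594 to 168, with a median of 26.4, so it was above Npy in some libraries and below Pomc in HFD replicate 2 and IPA replicate 3. Cartpt, Avp and Trh followed each other closely and overlapped across libraries, as did Oxt, Gal and Pomc.

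Pmch, the precursor of melanin-concentrating hormone, which promotes feeding and sleep, lies at 10:88091072-88092375 in GRCm38 (GENCODE M21). Its level, as CPM (counts scaled to library size, after adjustment of the library sizes by TMM), was 22.2, 1.13 and 61.4 in HFD replicates 1, 2 and 3. It was 56.8, 4.31 and 0.520 in IPA and 11.9, 77.6 and 131 in Trp, also in replicate order. The counts behind these values ran from 22 to 6519, so the differences between mice of a group are far outside counting error. The highest replicate exceeded the lowest by 54.3 times in HFD and 109 times in IPA, the Trp libraries ran from 11.9 to 131 CPM, and the 3 groups overlapped throughout.

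Hcrt, the precursor of the orexins, which maintain wakefulness, lies at 11:100761069-100762931. Its CPM was 3.66, 0.101 and 6.67 in HFD, 5.88, 0.715 and 0 in IPA and 2.01, 13.8 and 30.8 in Trp. IPA replicate 3 had no Hcrt count, where a floor of 3 counts was used, so the ratio in IPA is at least 82.9, beside 66.1 in HFD and 15.3 in Trp. The libraries high or low in Pmch were the same as for Hcrt, with identical rank orders in all 9. For each 100 counts of Pmch there were 8.93 to 23.4 counts of Hcrt in the 8 libraries with any. In those libraries the ratio of the 2 transcripts varied far less than either level.

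**Figure D1:**
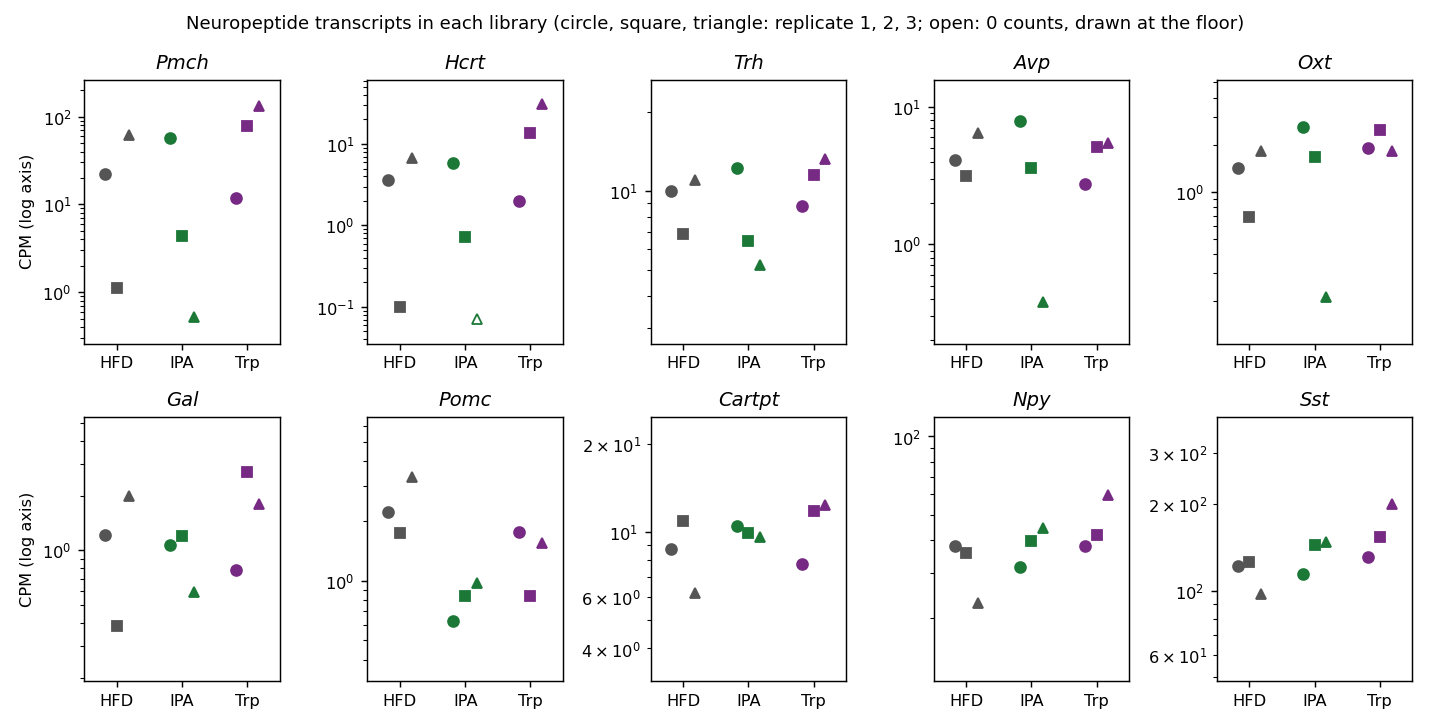
CPM of the 10 neuropeptide genes (log axis, a separate range for each gene) in the HFD, IPA and Trp groups, with 1 point per library and the marker giving the replicate. Pmch runs from 0.520 to 131 CPM and Hcrt from 0 (open marker, drawn at its floor) to 30.8, with the spread inside every group, whereas Sst stays between 97.2 and 200 CPM.

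Trh, the precursor of thyrotropin-releasing hormone, lies at 6:92242061-92244650. It was 10, 6.86 and 11.02 CPM in HFD, 12.2, 6.46 and 5.25 in IPA and 8.79, 11.5 and 13.3 in Trp. Its within-group ratios, 1.51 to 2.33, were far smaller than those of Pmch and Hcrt. The lowest 3 libraries were again HFD 2, IPA 2 and IPA 3.

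Avp (2:130580620-130582554), the precursor of the antidiuretic hormone vasopressin, was 4.13, 3.13 and 6.48 CPM in HFD, 7.88, 3.60 and 0.378 in IPA and 2.73, 5.10 and 5.48 in Trp. Oxt (2:130576173-130577054), its neighbour on the chromosome and the precursor of oxytocin, was 1.41, 0.686 and 1.83 CPM in HFD, 2.60, 1.68 and 0.213 in IPA and 1.89, 2.49 and 1.81 in Trp. IPA replicate 3 was the lowest library for both, with 16 counts of Avp and 9 of Oxt. The ratio of highest to lowest in IPA was 20.8 for Avp and 12.2 for Oxt, and without that library it was 2.19 and 1.55. In HFD and Trp the ratios were 1.37 to 2.67. The longest stretch that transcripts of Avp and Oxt share letter for letter is 127 bases, so some reads may have been assigned to the wrong gene of the pair.

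Gal (19:3409915-3414544), the precursor of galanin, an inhibitory peptide of hypothalamic and brainstem neurons, was 1.22, 0.383 and 2.00 CPM in HFD, 1.08, 1.21 and 0.591 in IPA and 0.779, 2.71 and 1.79 in Trp. HFD replicate 2 was the lowest at 19 counts, and the HFD ratio was 5.20. The groups overlapped.

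Pomc (12:3954951-3960642), whose product is cut into melanocortins, adrenocorticotropic hormone and beta-endorphin, had the clearest order between groups. It was 2.23, 1.74 and 3.32 CPM in HFD, 0.626, 0.838 and 0.969 in IPA and 1.75, 0.838 and 1.55 in Trp. All 3 IPA libraries were below all 3 HFD libraries, while Trp overlapped with both. These levels rest on 25 to 140 counts per library.

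Cartpt (13:99898489-99901091), the precursor of the cocaine and amphetamine regulated transcript peptides, which reduce feeding, was 8.78, 10.9 and 6.20 CPM in HFD, 10.5, 9.89 and 9.64 in IPA and 7.79, 11.8 and 12.4 in Trp. HFD replicate 3 was lowest, and the largest ratio within a group was 1.76.

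Npy (6:49822710-49829507) encodes neuropeptide Y, which drives feeding from the hypothalamus and dampens excitation in the hippocampus. It was 37.9, 35.7 and 23.0 CPM in HFD, 31.6, 39.8 and 44.3 in IPA and 37.9, 41.7 and 59.4 in Trp. Sst (16:23889573-23890958) encodes somatostatin, which marks dendrite-targeting interneurons. It was 121, 126 and 97.2 CPM in HFD, 114, 143 and 148 in IPA and 131, 153 and 200 in Trp. In both genes HFD replicate 3 was lowest and Trp replicate 3 highest. Every Trp library was above every HFD library for Sst, and for Npy too, although there the nearest libraries of the 2 groups both round to 37.9 CPM.

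Pmch, Hcrt, Avp, Oxt and Gal spread widely between mice of the same group. These 5 of the 10 genes had a range of at least 4-fold within at least 1 group, against 1.57% of 14925 genes with a mean of at least 1 CPM. Without IPA replicate 3 the count was 3, namely Pmch, Hcrt and Gal. On the log2 CPM scale the pooled SD within groups was 2.78 for Pmch, 2.91 for Hcrt, 1.34 for Avp, 1.12 for Oxt and 0.89 for Gal. It was 0.45 for Trh, 0.45 for Pomc, 0.33 for Npy, 0.32 for Cartpt and 0.24 for Sst, and the median of all genes tested was 0.19. Among 18690 genes Hcrt had the 8th and Pmch the 10th largest within-group SD, and Sst the 7121st. Hcrt and Pmch also had the 9th and 17th largest SD of the group means.

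The SD of the 3 group means was smaller than the within-group SD for all of these genes other than Pomc. It was 1.65 for Pmch, 2.05 for Hcrt and 0.53 for Avp, all on the log2 CPM scale. For Pomc it was 0.75 between and 0.45 within groups. Such an excess, in 1 of 10 neuropeptide genes, was seen in 19.1% of all genes tested. Differences within groups made up 26.5% of the variation of Pomc, 51.2% of Sst, 66.9% of Hcrt, 74.0% of Pmch and 86.4% of Avp, with a median of 73.3% over all genes.

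**Figure D2:**
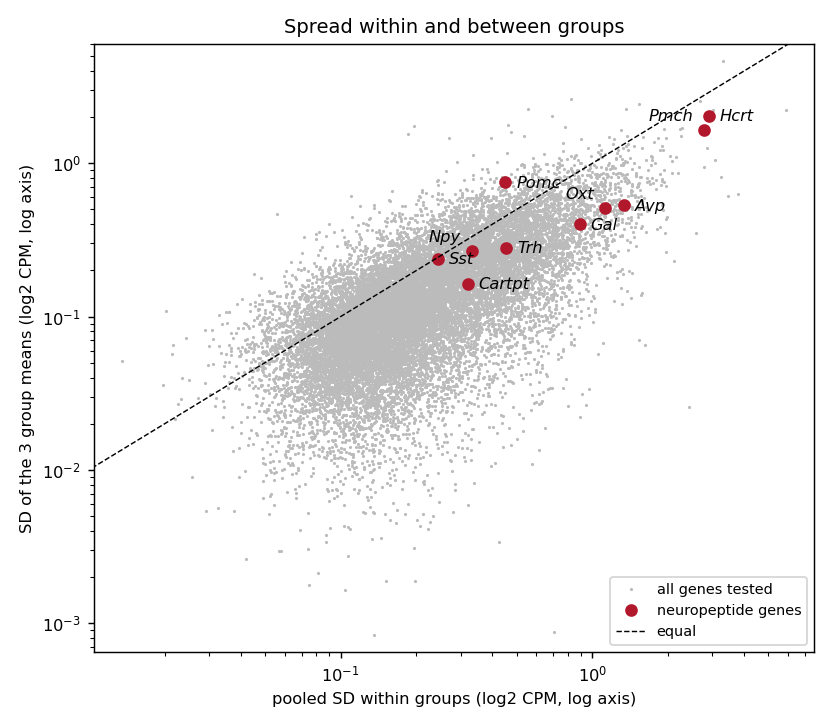
Pooled SD within groups against the SD of the 3 group means (both log2 CPM, log axes), with 1 grey point per gene tested and the 10 neuropeptide genes in red. Hcrt and Pmch lie at the far right at 2.91 and 2.78, Pomc lies above the dashed line of equality and the other 9 below it.

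The question of the first comparison is whether tryptophan in the diet changed these transcripts, and 0 of 10 passed. With edgeR's quasi-likelihood test and Benjamini-Hochberg adjustment over all genes, 64 genes (0.342% of those tested) had an adjusted p under 0.05 for Trp against HFD. At an unadjusted p under 0.05 the number of neuropeptide genes was 3 (Pomc, Npy and Sst), against 11.3% of all genes. With DESeq2 none of the 10 passed after adjustment, against 1.49% of the genes it tested. Sst had a log2 fold change of 0.49 (SE 0.16, 95% interval 0.14 to 0.84, edgeR adjusted p = 0.283), from a mean of 115 ± 15.4 CPM in HFD to 161 ± 35.4 in Trp (SD, n = 3 each). For Npy the log2 fold change was 0.53, with an edgeR adjusted p of 0.424 and a 95% interval from 0.02 to 1.03. Groups without overlap, with Trp higher, were found in 2 of 10 neuropeptide genes and in 8.06% of all genes tested. The values of both rested partly on 2 libraries: without HFD replicate 3 they were 0.38 for Sst and 0.33 for Npy, and without Trp replicate 3 they were 0.30 and 0.31.

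Pmch and Hcrt had the largest mean differences and the widest intervals for Trp against HFD. The log2 fold change was 1.39 for Pmch (95% interval -2.97 to 5.75, edgeR adjusted p = 0.841) and 2.17 for Hcrt (-1.91 to 6.25, edgeR adjusted p = 0.714). Intervals of that width hold several-fold differences in either direction, and the groups overlapped. With a library left out the estimates ran from 0.67 (without Trp replicate 3) to 2.67 (without HFD replicate 3) for Pmch and from 1.19 to 3.06, in the same refits, for Hcrt. For Pomc it was -0.80, with an edgeR adjusted p of 0.365 and a 95% interval from -1.50 to -0.11. The others were 0.66 for Oxt, 0.55 for Gal, 0.30 for Cartpt, 0.27 for Trh and -0.05 for Avp, with edgeR adjusted p from 0.650 to 0.992. The median over the 10 genes was 0.51 with 8 above 0, and -0.00 over all genes.

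For IPA against HFD, the second comparison, Pomc was the gene that differed most beside its spread. Its mean was 2.43 ± 0.814 CPM in HFD and 0.811 ± 0.173 in IPA (SD, n = 3 each), a log2 fold change of -1.57 (SE 0.33, 95% interval -2.30 to -0.85). Its unadjusted p was 4.50e-04 and its edgeR adjusted p 0.173, so it did not pass. In the authors' deposited table Pomc has a log2 fold change of -1.58 with q = 0.00502 and is called lower, as are 21 of the 15236 genes they tested (0.138%). DESeq2 with its own size factors gave the same size (-1.58) with an adjusted p of 0.00952, and passed 0.756% of the genes it tested. The call therefore depended on the test, whereas the direction was the same in the 6 other refits of all libraries or of the groups compared and in the 9 refits without a library. edgeR's count of passing genes in this comparison was 1 of 18690 (0.00535%), and that gene was not a neuropeptide gene. IPA libraries below HFD without overlap were found in 1 of 10 neuropeptide genes and in 8.01% of all genes tested.

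The remaining 9 genes did not pass for IPA by edgeR, DESeq2 or the authors' table, and none of the 9 had an unadjusted edgeR p under 0.05, which 10.4% of all genes had. Log2 fold changes were -0.46 for Pmch (95% interval -4.82 to 3.90), -0.66 for Hcrt, -0.32 for Gal, -0.22 for Trh and -0.21 for Avp. They were 0.26 for Npy, 0.23 for Sst (95% interval -0.12 to 0.59), 0.21 for Cartpt and 0.20 for Oxt. edgeR adjusted p for these 9 ran from 0.635 to 0.956, and the median over all 10 was -0.22 with 4 above 0 (-0.01 over all genes). Both comparisons share the HFD libraries, so their values are not independent. Over the 3 groups at once, 30 genes (0.161%) passed edgeR's test of any difference, and 0 of the 10 did. Pomc (adjusted p = 0.195) and Sst (0.473) had an unadjusted p under 0.05 there, as had 9.75% of all genes, and DESeq2 passed Pomc (0.0143) and 1.41% of all genes it tested.

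**Figure D3:**
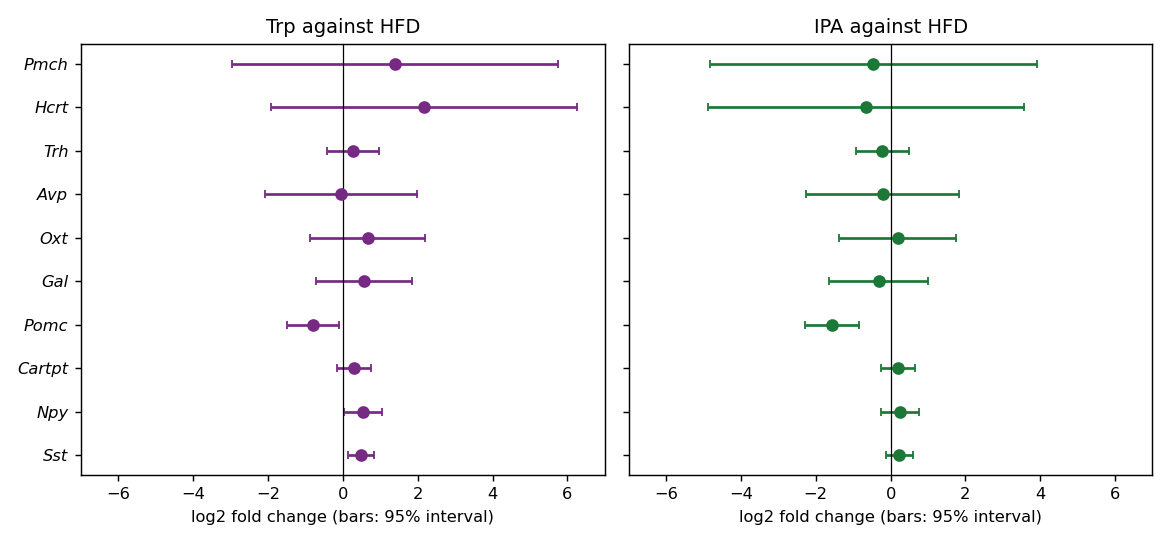
Log2 fold change of the 10 neuropeptide genes for Trp against HFD (left) and IPA against HFD (right), with points for the estimates and bars for their 95% intervals. For IPA the interval of Pomc, -2.30 to -0.85, excludes 0; for Hcrt the bars reach from -4.87 (right) to 6.25 (left).

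Across the 9 libraries the genes were divided by their correlations into sets, a division made after the values were seen. Given as descriptions, the correlations of log2 CPM among Pmch, Hcrt, Trh, Gal, Avp and Oxt ran from 0.57 to 0.99 over 15 pairs, with a median of 0.84. Without the 2 libraries farthest from the median of either gene they ran from 0.24 (Oxt with Gal) to 0.98, with a median of 0.74, and Hcrt with Oxt went from 0.87 to 0.36. Among Npy, Sst and Cartpt the correlations were 0.97 for Npy with Sst, 0.74 for Cartpt with Npy and 0.75 for Cartpt with Sst. Without the 2 libraries farthest from the median of Npy or Sst they were 0.90, -0.04 and 0.26, so the place of Cartpt in this set rests on few libraries. Between these sets they ran from -0.31 to 0.14 over 18 pairs, and from -0.69 to 0.49 without the 2 farthest libraries. Pomc had no correlation above 0.14 with any of the others and its lowest, -0.65, was with Cartpt. All values come from the same 9 libraries, with their depth and tissue composition in common.

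Hcrt was the gene most like Pmch among 12100 candidates (Pearson's r = 0.99, Spearman's rho = 1, n = 9). Trh came next at r = 0.97, and without the 2 libraries farthest from the median of Pmch these values were 0.97 and 0.97. The third was Rpl17-ps10, a ribosomal protein pseudogene, at 0.94. For Hcrt the closest were Pmch, Trh (0.95) and Alkbh7 (0.93), and for Trh they were Pmch, Hcrt and Cenpo (0.95). Avp and Oxt correlated at 0.91, which fell to 0.46 without the 2 libraries farthest from the median of Avp, so that value rests on few libraries.

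**Figure D4:**
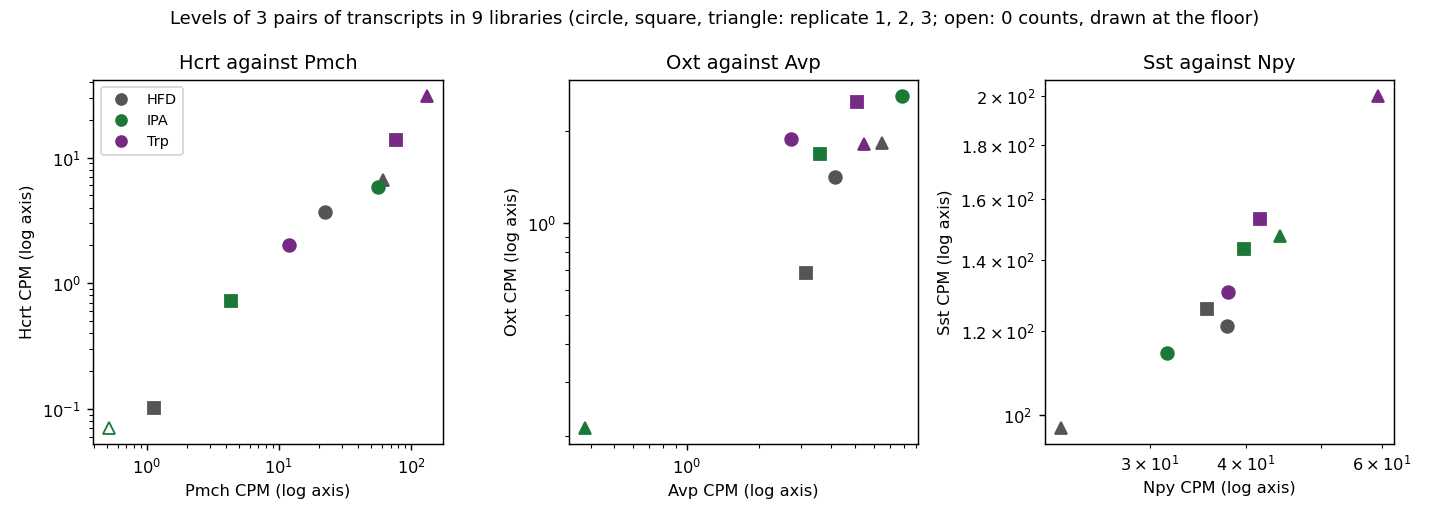
CPM of Hcrt against Pmch, Oxt against Avp and Sst against Npy (log axes), with 1 point per library coloured by group. Hcrt rises with Pmch in the same order in all 9 libraries, Oxt against Avp is drawn out by IPA replicate 3 at the lower left, and Trp replicate 3 is highest for both Npy and Sst.

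For Npy the closest genes were Cog1 (r = 0.98), Sst (0.97) and Sugp1 (0.95), and for Sst they were C2cd5 (0.98), Cog1 and Npy (both 0.97). For Pomc they were Rras2 (0.96), Tmem200a and B4gat1 (both 0.95), and for Cartpt Pml (0.98), Stk32c (0.95) and Necab2 (0.94). Gal was closest to Apoe (0.95), H2az2 (0.93) and Bcam (0.91), Avp to Vamp5, Lor and Prkg1 (all 0.93), and Oxt to Slc5a6, Aifm2 (both 0.95) and Ltbp3 (0.94). For each of the 10 the closest gene, picked as the highest of 12100 candidates over 9 libraries, reached an r of at least 0.93. Several of these values rest on few libraries. Without the 2 libraries farthest from the median of Oxt its 3 values were 0.56, 0.41 and 0.27. For Avp, treated in the same way, they were 0.69, 0.58 and 0.63, whereas for Pomc they were 0.92, 0.96 and 0.94.

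Pmch lies over part of Parpbp, a gene read from the opposite strand. Of its 749 exonic bases 435 (58.1%) are also exonic in Parpbp, and the protocol in the labels describes no strand marking, so reads of the shared bases cannot be told apart. Parpbp, added after its values were seen, had 17 to 198 counts. It was 0.792, 0.343 and 2.37 CPM in HFD, 2.80, 0.641 and 0.496 in IPA and 0.935, 1.46 and 3.99 in Trp. It had fewer counts than Pmch in all 9 libraries, with 21 against 22 in IPA replicate 3.

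Markers of regions next to the hippocampus were read beside these results, as sums of CPM over each list. The tissue held hippocampal markers: the dentate gyrus and CA list summed to 944 to 1095 CPM in HFD, 855 to 971 in IPA and 876 to 1080 in Trp. These sums rest mostly on a few abundant genes, and the mean log2 CPM of the list, which weights its genes equally, ran from 3.42 to 4.73 in HFD, from 3.42 to 4.06 in IPA and from 3.36 to 4.54 in Trp. That mean correlated at -0.91 with Cartpt (rho = -0.80) and at 0.65 with Pomc (rho = 0.65, n = 9 libraries). Its most abundant genes were Dkk3 (73.5 FPKM), Mpped1 (45.1) and Bok (37.7). Striatal markers, led by Penk (329 FPKM), Ppp1r1b (280) and Tac1 (104), were present too and summed to 1332 to 3942 in HFD, 3830 to 5069 in IPA and 2759 to 3924 in Trp. HFD replicate 3, lowest in Npy, Sst and Cartpt and highest in Pomc, was also the lowest library in the striatal list and the highest in the thalamus list, where it had 741 CPM against 218 to 473 in the others. The thalamus list was led by Calb2 (24.6 FPKM), Ramp3 (20.8) and Prkcd (18.4). Choroid plexus markers, led by Ttr (416 FPKM), Enpp2 (98.9) and Clic6 (6.34), ran from 227 to 2095 CPM. Midbrain dopamine markers, led by Aldh1a1 (35.9 FPKM), Nr4a2 (9.05) and Ddc (5.51), ran from 123 to 267 CPM and were also highest in HFD replicate 3. By edgeR none of the genes on these 5 lists passed. Log2 fold changes were above 0 for 20 of 20 striatal genes in both comparisons, with medians of 0.38 for Trp and 0.73 for IPA. They were also above 0 for 17 of 17 choroid plexus genes in both (0.79 and 0.99). For Trp they were above 0 in 4 of 20 hippocampal, 6 of 20 thalamic and 2 of 8 midbrain genes. For IPA the numbers were 3, 2 and 1. The shares over all genes were 49.5% and 48.9%. Genes of a list share the same libraries, so their directions are not independent. At an unadjusted p under 0.05 there were 1 of 20 hippocampal, 0 of 20 striatal, 1 of 20 thalamic, 0 of 17 choroid plexus and 2 of 8 midbrain genes for Trp, and 5, 3, 3, 0 and 1 for IPA. The shares of all genes at that threshold, 11.3% for Trp and 10.4% for IPA, are the background for these and for the lists that follow. DESeq2 passed 1 thalamus gene in each, Nwd2 for Trp and Calb2 for IPA, and none of the other 4 lists. Calb2 also stands on the interneuron list below. The part of these regions in the neuropeptide values was not tested.

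Hypothalamic markers other than the 10 genes were low in every library. Of 25 on the list 15 were tested, and their sum was 36.1, 41.1 and 57.1 CPM in HFD, 48.3, 56.4 and 44.0 in IPA and 53.6, 62.4 and 54.1 in Trp. The most abundant were Baiap3 (4.85 FPKM), Prlr (0.916, also a choroid plexus gene) and Hdc (0.819). All 25 had at least 1 count somewhere, yet 10 were too low to test, among them Rax, Six6 and Nr5a1. Agrp, made beside Npy in arcuate neurons, had 6 to 20 counts per library. The sum is led by Baiap3. The list's mean log2 CPM, which weights its genes equally, was -0.03, 0.01 and 0.48 in HFD, 0.40, 0.22 and -0.19 in IPA and 0.54, 0.78 and 0.40 in Trp. IPA replicate 3, the lowest library in Pmch, Hcrt, Trh, Avp and Oxt, was also the lowest by this mean, and Trp replicate 2 was the highest. The mean correlated at 0.76 with Pmch (rho = 0.63) and at 0.81 with Oxt (rho = 0.88, n = 9). The value for Pmch was not particular to this list. The mean of the list of other neuropeptides, described below, correlated at 0.77 with Pmch (rho = 0.80) and at 0.60 with Oxt (rho = 0.43). Before the filter on low counts these lists share Agrp, Ghrh, Kiss1, Gnrh1 and Qrfp, so they are not fully separate. For the midbrain dopamine list the correlation with Pmch was 0.47 (rho = 0.77). By edgeR 0 of 15 passed in each comparison, with 4 for Trp and 1 for IPA at an unadjusted p under 0.05, and DESeq2 passed none.

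Pituitary markers were read beside Pomc, which corticotrope and melanotrope cells express strongly. The list of 11 genes, 5 of them tested and 2 (Fshb and Pitx1) at 0 everywhere, summed to 5.80, 1.31 and 6.25 CPM in HFD, 2.03, 2.02 and 2.43 in IPA and 3.23, 2.35 and 2.46 in Trp. HFD replicates 1 and 3, the highest in Pomc, were also the highest here, with up to 132 counts of Prl and 87 of Gh. HFD replicate 2 had the lowest pituitary sum, with 1.74 CPM of Pomc. The mean log2 CPM of the pituitary list correlated at 0.65 with Pomc (rho = 0.58) and that of the striatal list at -0.81 (rho = -0.62, n = 9). The value for the pituitary list was not particular to it. The mean of the hippocampal list also correlated at 0.65 with Pomc (rho = 0.65). For the thalamus and midbrain lists the correlations were 0.52 (rho = 0.47) and 0.51 (rho = 0.03). The part of any of these tissues in the Pomc values was not tested. By edgeR 0 of 5 passed in each comparison, with 0 for Trp and 2 for IPA at an unadjusted p under 0.05, and DESeq2 passed none. Leaving out HFD replicate 3 gave a Pomc log2 fold change of -1.28 for IPA, and leaving out HFD replicate 1 gave -1.63.

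**Figure D5:**
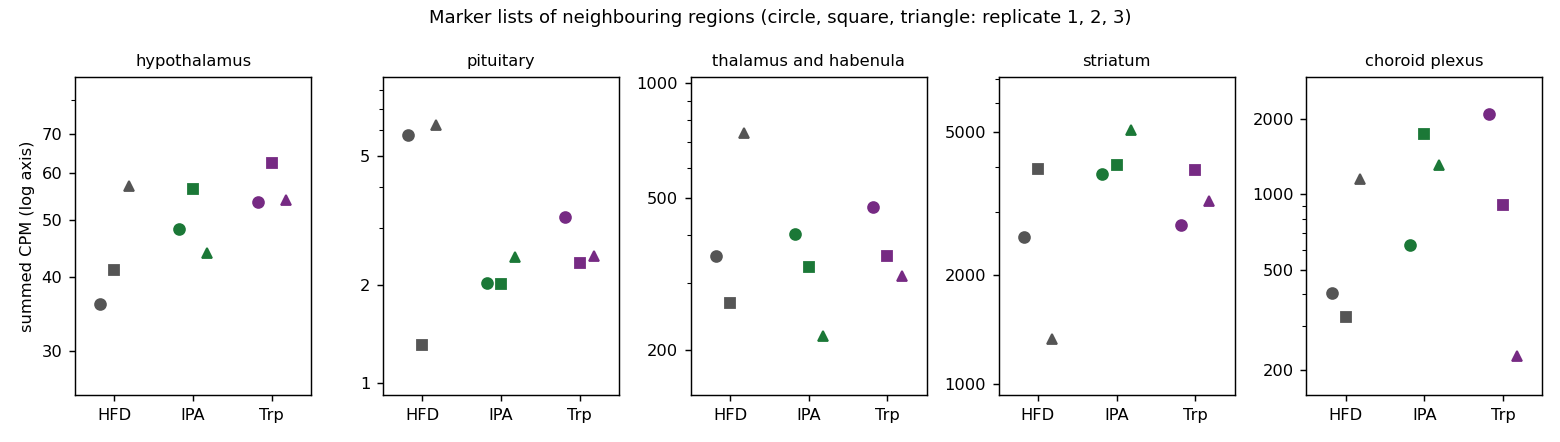
Summed CPM of 5 marker lists (log axes, a separate range for each list) by group, with 1 point per library and the marker giving the replicate. The hypothalamic sum stays between 36.1 and 62.4 CPM, and HFD replicate 3 is lowest for the striatum and highest for the thalamus and pituitary.

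Interneuron markers, which include the cells that make Npy and Sst in the hippocampus, had fold changes on both sides of 0. The 27 genes, all tested, summed to 1417 to 1564 CPM in HFD, 1599 to 1686 in IPA and 1519 to 1694 in Trp. Every IPA sum was above every HFD sum, but the sums give most weight to abundant genes. The list's mean log2 CPM, which weights its genes equally, overlapped between groups. It ran from 4.54 to 4.74 in HFD, from 4.64 to 4.67 in IPA and from 4.59 to 4.73 in Trp. Log2 fold changes were above 0 for 16 of 27 genes in Trp and 13 of 27 in IPA, with medians of 0.04 and -0.01. The most abundant were Pvalb (110 FPKM, log2 fold change 0.06 for Trp), Gad1 (91.2 FPKM, -0.02) and Lamp5 (71.9 FPKM, 0.01). By edgeR 0 of 27 passed in each comparison, with 4 for Trp and 5 for IPA at an unadjusted p under 0.05. DESeq2 passed none for Trp and 2 for IPA, Gad2 and Calb2, the latter being the same call as on the thalamus list.

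The receptors for the 10 peptides were present at low to moderate levels. Of 25 receptor genes 21 were tested, and the highest mean FPKM was that of Mchr1, the receptor for melanin-concentrating hormone, at 9.07. The somatostatin receptors Sstr2 and Sstr3 followed at 6.75 and 4.83 FPKM. Mchr1 ran from 5.21 to 11.1 FPKM while its ligand's precursor ran from 0.594 to 168. By edgeR 0 of 21 passed, with 4 for Trp and 3 for IPA at an unadjusted p under 0.05. Their median log2 fold change was 0.27 for Trp, with 15 of 21 above 0, and 0.07 for IPA, with 11 above 0. DESeq2 passed 1 for Trp, Mc4r, a melanocortin receptor through which Pomc products reduce feeding, whose edgeR log2 fold change was 0.98 (adjusted p = 0.162), and none for IPA.

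The machinery that cuts and packs the precursors was highly expressed and varied little. All 20 of its genes were tested, among them Cpe, the carboxypeptidase that trims the cut peptides, at 1076 FPKM, Scg5 at 225 and Pcsk1n at 125. Their sum was 6068 to 6507 CPM across the 9 libraries. Within this narrow range the list's mean log2 CPM correlated at 0.92 with Sst (rho = 0.97) and at 0.89 with Npy (rho = 0.95). With Pmch the correlation was -0.26 (rho = -0.03). The interneuron list gave 0.61 with Sst and 0.70 with Npy (rho = 0.30 for both). What lies behind these values was not tested. By edgeR 0 of 20 passed, with 4 for Trp and 2 for IPA at an unadjusted p under 0.05, and DESeq2 passed none.

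Other neuropeptide precursors gave a measure of what is usual for such genes in this tissue. Of 31 on the list 19 were tested, 2 (Prlh and Galp) had no count in any library, and the highest were Penk, which encodes enkephalin, at 329 FPKM, Cck, which encodes cholecystokinin, at 194 and Tac1, which encodes substance P, at 104. Their within-group SDs on the log2 CPM scale were 0.51, 0.17 and 0.46. Penk and Tac1 are also abundant in striatal neurons and stand on the striatal list. By edgeR 0 of 19 passed in each comparison, with 3 in each at an unadjusted p under 0.05. DESeq2 passed Grp in both, where the edgeR log2 fold change was -0.93 for Trp and -0.95 for IPA. None of the 19 reached the within-group SD of Pmch or Hcrt. Only 0.0482% and 0.0375% of all genes tested had a larger SD than Pmch and Hcrt, so this says little about neuropeptide genes as a kind.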

How the data were processed

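Per the labels' protocols, libraries were made from RNA selected with oligo(dT) beads, by random priming and with no step that marks strand. StringTie 2.1.3b and mm10 are named per the submitters' processing notes, while the sources used here name no aligner, counting tool or annotation. The values headed as counts per gene and library were whole numbers and were taken as unscaled. They summed to 40621084 to 50938746 per library. The authors also deposited FPKM, which scale fragments to gene length and library size. Their comparisons of each group with HFD were deposited as log2 fold change, p-value and q-value. For all 10 genes the table's start differed from that in GENCODE M21 (GRCm38) while the length was the same, so the table's build is not settled and the printed positions are those of GENCODE M21.

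Counts were fitted in R 4.3.3 with edgeR 4.0.16: filterByExpr (minimum count 10), TMM scaling, a robust quasi-likelihood model with 1 mean per group over all 9 libraries, two-sided tests and Benjamini-Hochberg adjustment over 18690 genes at 0.05. The procedure was tested on simulated data. CPM used TMM-adjusted library sizes, and log2 CPM a prior count of 2. A count of 0 was replaced by a floor of 3 counts in ratios. Alternatives were RLE scaling, DESeq2 1.42.0, no filter, limma 3.58.1 on log2 FPKM with pseudocounts of 0.5 and 0.1 (genes that reach an FPKM of 1 in 3 or more libraries), the replicate number as a block, the 6 libraries compared, and each library left out. The labels give 3 mice per group, and p-values measure the spread between these mice. An exact permutation test of 3 against 3 cannot give p below 0.1, so none is reported.

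The 10 genes and 11 further lists were chosen with earlier results of these data known. Named are the 10 genes, the 3 most abundant genes of each list by mean FPKM and the 3 genes most correlated with each of the 10 (mean FPKM of at least 1, predicted genes left out). Others named were chosen after their values were seen. Python 3.11.15 with matplotlib 3.10.9 made the figures.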

Additional observations from a re-analysis of the deposited data

How the results depend on the processing

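How many genes passed depended strongly on the method and on single libraries, and the causes were not tested. For Trp against HFD the 64 genes became 288 with DESeq2, 97 with no filter on low counts, 8 with only the 6 libraries compared and 13 to 323 with a library left out, the highest without HFD replicate 3. For IPA against HFD the 1 gene became 160, 6, 2 and 0 to 52 under the same alternatives, the highest again without HFD replicate 3. For any difference the 30 genes became 290 with DESeq2, 72 with no filter and 3 to 167 with a library left out. The number of neuropeptide genes with a 4-fold range in a group was 5 and ran from 3 to 5 with a library left out, the lowest without IPA replicate 3.

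With the replicate block the counts were 23 for Trp, 0 for IPA and 1 for any difference, and the Pomc log2 fold change for IPA was -1.53. Over all genes tested, the deviations of same-numbered libraries from their group means correlated at -0.20 to 0.05. Such values cannot exclude a litter or day shared by same-numbered mice, which the labels do not state.

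Of 320 recomputed values of the 10 genes 16 reversed in sign. No difference of these genes had passed in the main fit, so no reversal could be of a difference that had passed. The Avp log2 fold change for Trp was 0.0328 and 0.0331 in limma with pseudocounts of 0.5 and 0.1 and -0.26 to 0.29 with a library left out. For IPA, Oxt was -0.10 in limma with a pseudocount of 0.5 and -0.26 with 0.1. With a library left out, the ranges for IPA were -0.47 to 0.71 for Oxt, -3.55 to 0.82 for Pmch, -3.28 to 0.23 for Hcrt, -0.67 to 0.0101 for Trh, -0.74 to 0.26 for Gal and -1.21 to 0.33 for Avp. For Trp they were 0.67 to 2.67 for Pmch, 1.19 to 3.06 for Hcrt, 0.11 to 1.13 for Gal and 0.09 to 0.42 for Trh. Pomc for IPA stayed between -1.77 and -1.28, with edgeR adjusted p from 0.0676 to 0.459. Low counts limit Pomc, Gal, Oxt and the lowest libraries of Hcrt.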
